A study of Mus musculus with 8 samples.

Results

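The TGF-beta ligand, receptor and latent binder genes were examined in the heart of tumor-bearing mice. They are the 10 genes that the deposited gene count table lists as Tgfb1, Tgfb2, Tgfb3, Tgfbr1, Tgfbr2, Tgfbr3, Ltbp1, Ltbp2, Ltbp3 and Ltbp4, of 43346 genes in all, and they were chosen by name. The choice was made with earlier results of these data known. RNA came from the ventricles of male C57BL/6 mice. Lewis lung carcinoma cells, a mouse lung tumor line called LLC1, were injected under the skin of the left flank at 7 weeks of age in 4 mice (1000000 cells each), and another 4 mice received PBS, the vehicle alone. All 8 hearts were taken 14 days later, and each library held the RNA of 1 mouse. Mice are named by injection and by the code in their label, such as LLC1 1-2 or PBS 2-5. Whole ventricle mixes muscle with fibroblasts, vessels and blood, so fewer cells of a type and less RNA per cell cannot be told apart. The comparison asks how these genes stood in tumor-bearing against PBS-injected hearts.

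TGF-beta is made as an inactive dimer in which each growth factor stays bound to its own propeptide. The propeptide is disulfide-linked to a latent TGF-beta binding protein, which anchors the complex on fibrillin microfibrils of the matrix until integrins, thrombospondin or proteases release the ligand. The freed ligand binds TGFBR2, a kinase that then phosphorylates TGFBR1, and TGFBR1 phosphorylates SMAD2 and SMAD3, which move to the nucleus with SMAD4. In the heart the pathway is best known for driving fibroblasts to deposit collagen and other matrix proteins.

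Tgfb1 and Tgfbr1, a ligand gene and the gene of the signaling kinase receptor, were lower in LLC1 mice, to 0.735-fold and 0.798-fold. Neither the other ligands, nor the other receptors, nor any of the latent binders passed the same test. Of the 10 genes 2 were therefore lower (false discovery rate, FDR, under 0.05) where 4.61% of the 16111 genes tested were lower, and 0 were higher where 4.12% were higher. Over all genes tested this was 663 higher and 743 lower, and with scaling by total counts alone 225 higher and 793 lower. The 2 calls did not hold in every fit with a single mouse left out. The number of the 10 genes called lower ran from 0 (without LLC1 1-3 or PBS 1-3) through 1 (without LLC1 1-2, LLC1 1-5 or PBS 2-5) to 3 (without LLC1 2-2 or PBS 1-1). Over all genes tested, 634 were called without LLC1 1-3 and 542 without PBS 1-3, against 1406 with all mice. The log2 fold changes in these fits ran from -0.53 to -0.35 for Tgfb1 and from -0.36 to -0.30 for Tgfbr1. All 10 had enough counts to be tested. The estimate was below 0 for 8 of the 10, with a median log2 fold change of -0.17 against -0.01 over all genes tested. The FDR was computed across every gene tested, by the Benjamini-Hochberg method, from the p-values of edgeR's quasi-likelihood test. Fold changes are LLC1 over PBS throughout.

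The DNA just before the start of the 2 genes that fell is shown beside that of the ligand and receptor genes of the same families that did not pass the test. RefSeq (GRCm38.p6) gave a start for 8 of the 10 genes, all but Tgfb3 and Tgfbr3, and the stretches printed are the 250 bases before the start, at chr7:25686752-25687001 (plus strand), chr4:47352972-47353221 (plus strand), chr1:186705990-186706239 (minus strand) and chr9:116175364-116175613 (minus strand). For these 4 the RefSeq start is the gene start in the deposited table. The Tgfb2 stretch overlaps an exon of the antisense gene Gm29491. All are written 5′ to 3′ with every GC box (GGGCGG on either strand) in capitals.
Tgfb1: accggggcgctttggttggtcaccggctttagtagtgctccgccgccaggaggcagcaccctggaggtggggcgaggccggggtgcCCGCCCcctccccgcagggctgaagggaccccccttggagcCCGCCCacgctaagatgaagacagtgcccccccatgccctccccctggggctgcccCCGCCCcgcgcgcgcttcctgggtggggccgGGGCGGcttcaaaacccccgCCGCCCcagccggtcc
Tgfbr1: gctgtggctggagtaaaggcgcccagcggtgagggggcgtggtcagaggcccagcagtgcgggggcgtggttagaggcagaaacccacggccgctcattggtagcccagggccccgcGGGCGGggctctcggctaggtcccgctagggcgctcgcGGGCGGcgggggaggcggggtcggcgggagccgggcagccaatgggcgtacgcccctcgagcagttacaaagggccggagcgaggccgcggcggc
Tgfb2: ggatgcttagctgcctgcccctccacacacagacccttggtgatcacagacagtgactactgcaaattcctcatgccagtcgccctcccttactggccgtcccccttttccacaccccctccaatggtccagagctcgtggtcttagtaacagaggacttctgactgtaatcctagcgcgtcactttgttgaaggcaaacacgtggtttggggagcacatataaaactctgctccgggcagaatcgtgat
Tgfbr2: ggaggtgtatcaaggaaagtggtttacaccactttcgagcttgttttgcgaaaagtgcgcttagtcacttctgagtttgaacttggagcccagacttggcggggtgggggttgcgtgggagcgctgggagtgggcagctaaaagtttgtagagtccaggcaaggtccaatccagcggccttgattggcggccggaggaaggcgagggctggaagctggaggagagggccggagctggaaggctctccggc

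The Tgfb1 stretch held 5 GC boxes and the Tgfbr1 stretch held 2, while neither Tgfb2 nor Tgfbr2 held any. Genes that did not pass the test held them too. The 3 RefSeq starts of Ltbp4 had 3, 5 and 7 in this window and the start of Ltbp2 had 2, while Ltbp1 and Ltbp3 had none. The Ltbp4 windows with 5 and 7 largely overlap, so they share boxes. Of the 32851 RefSeq starts, 32.7% had at least 1 GC box in the same window. G and C made up 75.2% of the bases for Tgfb1, 74.8% for Tgfbr1, 53.6% for Tgfb2 and 58.4% for Tgfbr2, with a median of 52.4% over all starts. The CpG dinucleotides numbered 21, 29, 8 and 12 in the same order. The 5-base SMAD box CAGAC was found 0 times for Tgfb1, 0 times for Tgfbr1, 2 times for Tgfb2 and 1 time for Tgfbr2, and 42.2% of all starts held it. The AP-1 site TGAGTCA was in none of the 4 and in 4.46% of all starts. The E box CACGTG was in the Tgfb2 stretch only, among these 4, and in 6.02% of all starts. Matches were read on both strands and describe letters in these windows. Tgfbr1 has another RefSeq start further into the gene, whose sequence is not shown. The window before that start held 0 GC boxes and 1 SMAD box, with 52.8% G and C.

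The libraries held 12480706 to 19747596 counts on genes, so 1 CPM (1 count in 1000000, after TMM normalization) stood for 11.7 to 19.9 reads. PBS 1-1 stood apart. Its 10 most abundant genes took 20.4% of the counts against 13.9% to 15.3% in the other 7 libraries, and it lay at 35.3 on the second principal component where the others lay between -23.3 and 8.7. Heart muscle markers were abundant, the 8 on the list summing to 92000 to 108000 CPM per mouse. The atrial list summed to 113 to 339 CPM in LLC1 and 123 to 249 CPM in PBS mice. Nearly all of it was Nppa, a natriuretic peptide that stressed ventricles also make, at 110 to 336 CPM per mouse. Myl7 and Myl4 averaged 0.943 to 2.41 CPM per group and Sln was under the filter. Group values below are means ± SD over 4 mice.

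In PBS hearts the latent binder Ltbp4 was by far the most abundant of the 10 genes per length, at 58.6 ± 9.57 CPM per kilobase. LTBP4 is needed for elastic fiber assembly and binds latent TGF-beta 1. Tgfbr2 followed at 13.6 ± 0.592, then Ltbp3 at 9.96 ± 1.15 and Tgfbr3 at 9.66 ± 1.29 CPM per kilobase, a pair whose levels lay within each other's spread. Tgfb1 stood at 7.68 ± 1.08, Ltbp1 at 6.13 ± 0.100, Tgfb3 at 5.87 ± 0.836 and Tgfbr1 at 3.99 ± 0.207 CPM per kilobase. The spread of Tgfb3 took in the mean of Ltbp1, but not the reverse. Tgfb2 (1.67 ± 0.0399) and Ltbp2 (0.600 ± 0.225) closed the order. In LLC1 hearts Ltbp1, at 5.97 ± 0.401 CPM per kilobase, stood above Tgfb1, at 5.64 ± 0.684, with overlapping spreads. Lengths are those in the deposited table, and the order depends on them. Counting all exon bases in GENCODE M21, an alternative chosen after seeing the data, makes Tgfb1 5042 bases long in place of 2558, Tgfbr2 8187 in place of 4785 and Ltbp3 9069 in place of 5190. Their PBS levels were then 3.90 ± 0.547, 7.93 ± 0.346 and 5.70 ± 0.659 CPM per kilobase, which puts Tgfb1 below Tgfb3 and Tgfbr2 below Tgfbr3, while Ltbp4 stayed first and Tgfb2 and Ltbp2 last. Fold changes of single genes do not use the length.

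**Figure D1:**
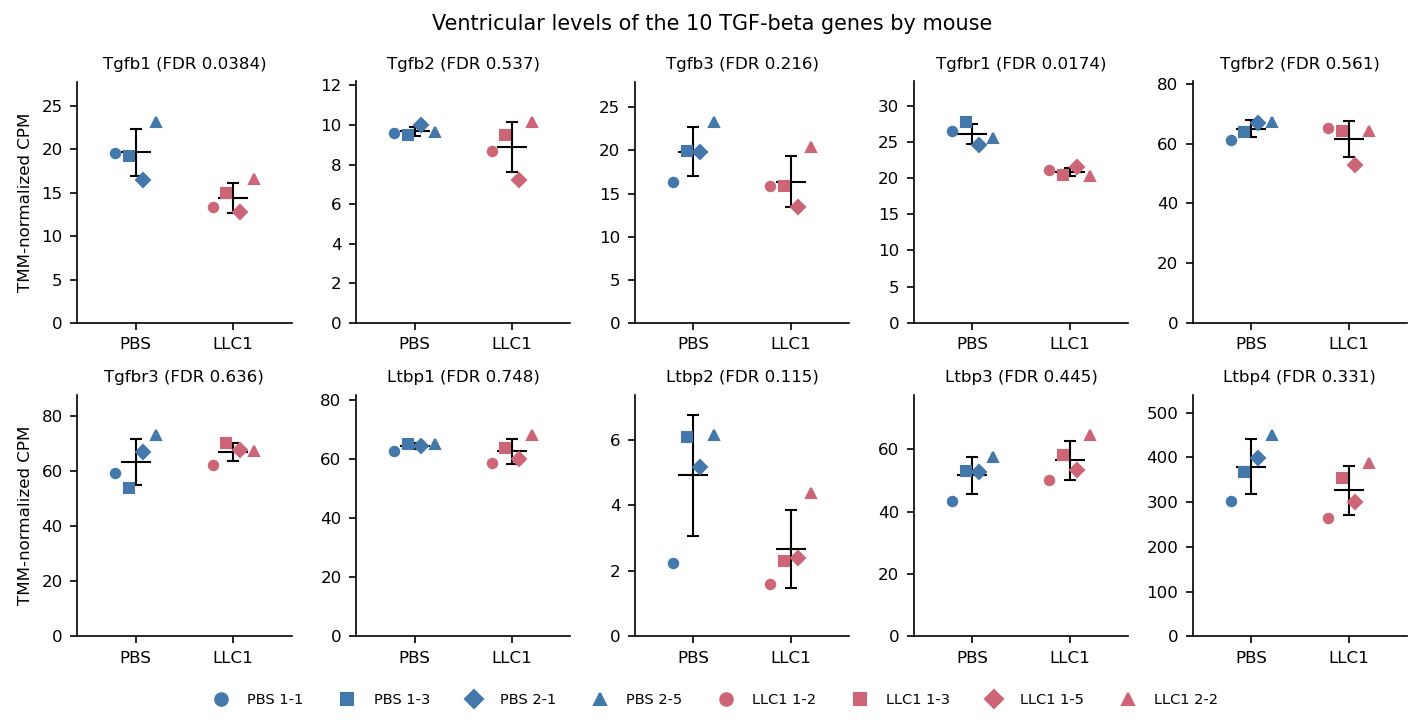
TMM-normalized CPM (y axes, from 0) of each of the 10 genes in the 4 PBS mice (blue) and 4 LLC1 mice (red), 1 symbol per mouse, with the group mean and SD as black bars and the FDR above each panel. The groups separate fully for Tgfbr1, where LLC1 mice lie between 20.28 and 21.5 and PBS mice between 24.6 and 27.76, and nearly so for Tgfb1.

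Among the ligands, Tgfb1 (ENSMUSG00000002603, chromosome 7, 25687002 to 25705077, mm10), the isoform made by many cell types including fibroblasts, macrophages and platelets, fell. Its level was 13.36, 14.95, 12.75 and 16.65 CPM in LLC1 1-2, 1-3, 1-5 and 2-2, and 19.65, 19.28, 16.48 and 23.2 CPM in PBS 1-1, 1-3, 2-1 and 2-5. The groups overlapped only because LLC1 2-2 lay just above PBS 2-1. Group levels were 14.4 ± 1.75 CPM (SD, n = 4) for LLC1 and 19.7 ± 2.76 CPM (SD, n = 4) for PBS. This was a log2 fold change of -0.44 (standard error 0.12, 95% interval -0.70 to -0.19, edgeR FDR = 0.0384). An exact 2-sided permutation test, in which the 8 mice can be arranged in 70 ways and p cannot go below 0.0286, gave p = 0.0571. The reads behind it numbered 202 to 393 per mouse. With single mice left out, the call held in 3 of 8 fits and was lost without LLC1 1-2, 1-3 or 1-5 or PBS 1-3 or 2-5, the highest FDR being 0.111 without LLC1 1-5. Without PBS 1-1, the library that stood apart, the estimate was -0.44 (edgeR FDR = 0.0372).

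Tgfb3 (ENSMUSG00000021253, chromosome 12, 86056744 to 86079041), known for its part in palate and valve development, did not pass the test. It had 15.88, 15.87, 13.4 and 20.38 CPM in LLC1 1-2, 1-3, 1-5 and 2-2 and 16.39, 19.91, 19.77 and 23.32 CPM in PBS 1-1, 1-3, 2-1 and 2-5. LLC1 2-2 lay above 3 of the PBS mice, and the other LLC1 mice lay below all of them. The log2 fold change was -0.28 with a 95% interval of -0.57 to 0.01 (FDR = 0.216), an interval that holds both 0 and the estimate for Tgfb1. Without strand its reads cannot be told apart from those of Gm48008, which overlaps 7.6% of its exon bases on the other strand.

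Tgfb2 (ENSMUSG00000039239, chromosome 1, 186622792 to 186705989), the ligand that needs the co-receptor TGFBR3 for strong binding to TGFBR2, was the scarcest ligand. It had 8.88 ± 1.27 CPM in LLC1 mice and 9.68 ± 0.231 CPM in PBS mice, a log2 fold change of -0.12 with a 95% interval of -0.37 to 0.13 (FDR = 0.537). The PBS mice were within 9.465 to 10 CPM of each other, while the LLC1 mice ran from 7.221 CPM in LLC1 1-5 to 10.16 CPM in LLC1 2-2. An antisense gene, Gm29491, overlaps 2.14% of its exon bases and had at most 8 reads in any mouse.

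Summed per length, the ligands came to 12.0 ± 1.72 CPM per kilobase in LLC1 mice and 15.2 ± 1.67 in PBS mice. Within that sum Tgfb1 made up 47.1% ± 1.65 in LLC1 and 50.4% ± 3.41 in PBS mice, Tgfb3 40.2% ± 1.75 and 38.5% ± 3.16, and Tgfb2 12.8% ± 0.606 and 11.1% ± 1.26. The groups overlapped for each of these shares, which do not depend on the library scaling. They depend on gene length, and with the GENCODE lengths Tgfb1 made up 34.1% ± 3.05 and Tgfb3 51.2% ± 3.19 in PBS mice, the reverse order.

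Among the receptors, Tgfbr1 (ENSMUSG00000007613, chromosome 4, 47353222 to 47414931), which encodes the kinase that passes the signal to SMAD2 and SMAD3, was the gene with the cleanest separation. It had 21.04, 20.35, 21.5 and 20.28 CPM in LLC1 1-2, 1-3, 1-5 and 2-2 and 26.43, 27.76, 24.6 and 25.5 CPM in PBS 1-1, 1-3, 2-1 and 2-5. Every LLC1 mouse was below every PBS mouse, as was so for 8.27% of all genes tested. None of the 10 genes had every LLC1 mouse above every PBS mouse, which 8.89% of all genes tested had. Group levels were 20.8 ± 0.585 and 26.1 ± 1.35 CPM, with a log2 fold change of -0.33 (standard error 0.07, 95% interval -0.48 to -0.17, edgeR FDR = 0.0174). The exact permutation test gave the lowest 2-sided p it allows, 0.0286. It stayed under the threshold in 6 of 8 fits with single mice left out, and the FDR was 0.0605 without LLC1 1-3 and 0.0605 without PBS 1-3. Without PBS 1-1 the estimate was -0.32 (edgeR FDR = 0.0159).

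Tgfbr2 (ENSMUSG00000032440, chromosome 9, 116087698 to 116175363), which encodes the receptor that binds the ligand first, had 65.09, 64.26, 52.68 and 64.05 CPM in LLC1 1-2, 1-3, 1-5 and 2-2 and 61.26, 64.01, 66.97 and 67.29 CPM in PBS 1-1, 1-3, 2-1 and 2-5. LLC1 1-5 lay below all PBS mice and the other LLC1 mice lay among them. This gave a log2 fold change of -0.08 with a 95% interval of -0.25 to 0.09 (FDR = 0.561).

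Tgfbr3 (ENSMUSG00000029287, chromosome 5, 107106570 to 107289629) encodes betaglycan, a co-receptor without a kinase that presents ligand to TGFBR2. It had 62.12, 69.99, 67.45 and 67.32 CPM in the LLC1 mice, in the same order as above, and 59.29, 53.77, 66.91 and 72.9 CPM in the PBS mice. The PBS mice spread more widely than the LLC1 mice and enclosed them, with a log2 fold change of 0.08 and a 95% interval of -0.12 to 0.27 (FDR = 0.636). Gm43422 overlaps 4.54% of its exon bases on the same strand.

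Summed per length the receptors had 26.2 ± 1.15 CPM per kilobase in LLC1 and 27.2 ± 1.61 in PBS mice. The share of Tgfbr1 in that sum was 12.2% ± 0.880 in LLC1 mice (11.4% to 13.4%) and 14.7% ± 1.54 in PBS mice (13.4% to 16.4%), so the groups lay next to each other at 13.4%. The share of Tgfbr2 was 48.9% ± 2.97 and 49.9% ± 1.45, and that of Tgfbr3 38.9% ± 2.40 and 35.4% ± 2.75. With the GENCODE lengths this order turned as well, to 36.8% ± 1.34 for Tgfbr2 and 44.6% ± 3.17 for Tgfbr3 in PBS mice.

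**Figure D2:**
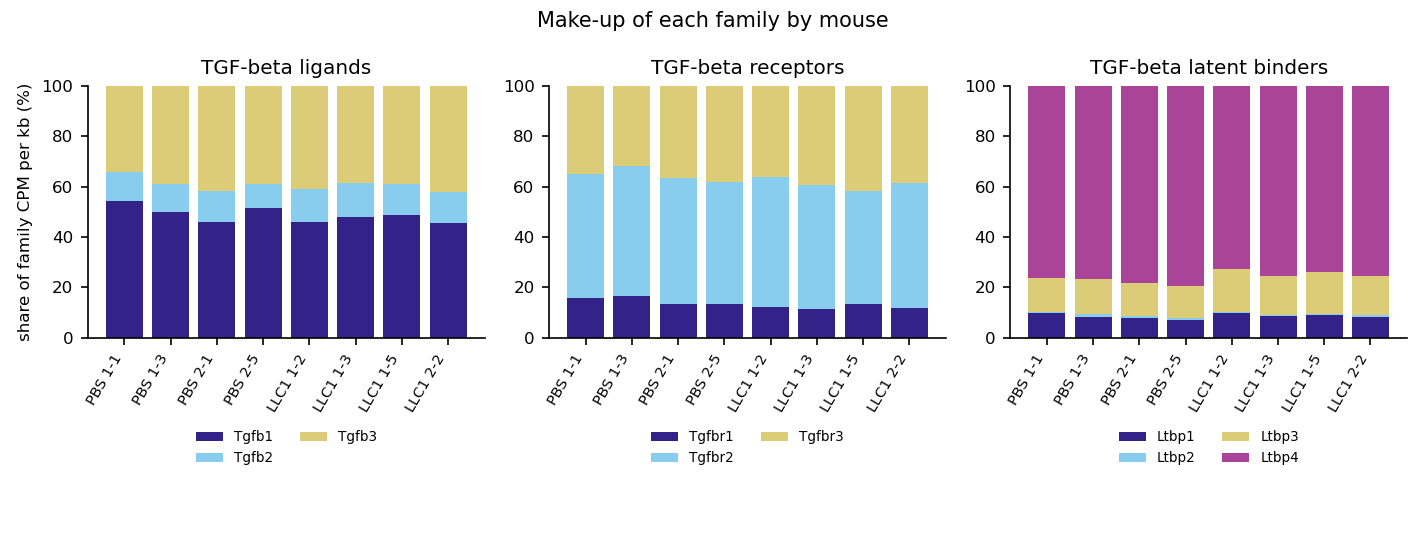
Share (%) of each gene in the summed CPM per kilobase of its family, for ligands, receptors and latent binders, with 1 stacked bar for each of the 8 mice, with the lengths in the deposited table. Tgfb1 and Tgfb3 make up most of the ligand sum, Tgfbr2 and Tgfbr3 most of the receptor sum, and Ltbp4 72.6% to 79.4% of the latent binder sum.

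None of the latent binders passed the test. Ltbp2 (ENSMUSG00000002020, chromosome 12, 84783212 to 84876532), a microfibril protein that unlike the others does not bind latent TGF-beta, had the largest estimate and the fewest reads, 24 to 104 per mouse. Its level was 1.588, 2.305, 2.407 and 4.377 CPM in LLC1 1-2, 1-3, 1-5 and 2-2 and 2.231, 6.1, 5.179 and 6.139 CPM in PBS 1-1, 1-3, 2-1 and 2-5. PBS 1-1 lay among the LLC1 mice, and LLC1 2-2 lay nearest to the other PBS mice. The log2 fold change was -0.87 (standard error 0.32, 95% interval -1.58 to -0.17, FDR = 0.115). Without PBS 1-1 it was -1.08 (FDR = 0.0143), and without LLC1 2-2 it was -1.24 (FDR = 0.0479), each from the same edgeR test on the 7 mice left. D030025P21Rik overlaps 9.34% of its exon bases on the other strand and had at most 4 reads in any mouse.

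Ltbp4 (ENSMUSG00000040488, chromosome 7, 27305136 to 27337692) had 264.8, 353.8, 300.3 and 387.7 CPM in LLC1 1-2, 1-3, 1-5 and 2-2 and 301.6, 366.7, 398.4 and 449.4 CPM in PBS 1-1, 1-3, 2-1 and 2-5. Both groups spread by about as much as they differed, and PBS 1-1 lay below LLC1 1-3 and LLC1 2-2. Its estimate, on the log2 scale, was -0.21 with a 95% interval of -0.50 to 0.07 (FDR = 0.331).

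Ltbp3 (ENSMUSG00000024940, chromosome 19, 5740904 to 5758532), a binder of latent TGF-beta known for its part in bone and tooth growth, had 50.14, 58.21, 53.34 and 64.55 CPM in the LLC1 mice and 43.33, 53.14, 52.67 and 57.55 CPM in the PBS mice, in the same order. The groups overlapped and the log2 fold change was 0.13 with a 95% interval of -0.09 to 0.34 (FDR = 0.445).

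Ltbp1 (ENSMUSG00000001870, chromosome 17, 75005568 to 75392512), the classical binder of the small latent complex, was the flattest of the 10 genes. It had 62.6 ± 4.20 CPM in LLC1 and 64.3 ± 1.05 CPM in PBS mice, a log2 fold change of -0.04 with a 95% interval of -0.18 to 0.10 (FDR = 0.748). The estimate turned to 0.03 when offsets for gene length were used.

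Within the latent binder sum, which was 67.7 ± 10.2 CPM per kilobase in LLC1 and 75.3 ± 11.0 in PBS mice, the shares of Ltbp4 and Ltbp3 separated the groups. Ltbp4 made up 72.6% to 75.7% of it in LLC1 mice and 76.2% to 79.4% in PBS mice. Ltbp3 made up 15.5% to 17.1% in LLC1 mice and 12.7% to 13.9% in PBS mice. Neither range overlapped that of the other group, although neither gene passed the test on its own level. For comparison, the levels of 17.2% of all genes tested did not overlap between groups, in either direction. With the GENCODE lengths the ranges of Ltbp3 stayed apart (9.52% to 10.6% and 7.67% to 8.44%) but those of Ltbp4 overlapped (78.5% to 81.2% and 81.0% to 84.1%). Ltbp1 held 8.90% ± 0.793 and 8.26% ± 1.13, and Ltbp2 0.469% ± 0.146 and 0.779% ± 0.239. Shares of 1 sum move against each other, and they are given here as a description.

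**Figure D3:**
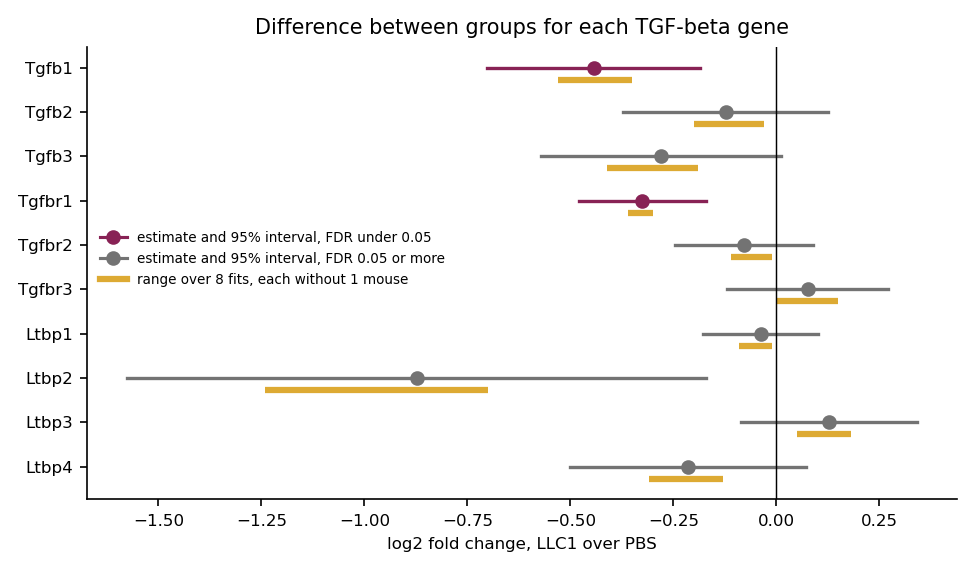
Log2 fold change of LLC1 over PBS (x axis) for each of the 10 genes, with its 95% interval, and below it in yellow the range of the estimate over 8 fits that each left out 1 mouse. The intervals of Tgfb1, Tgfbr1 and Ltbp2 lie below 0, and only the first 2 have an FDR under 0.05.

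Some mice were the highest or lowest of their group for many of the 10 genes. LLC1 2-2 held the highest level of its group for 7 of the 10 genes, namely all 3 ligands and all 4 latent binders, where it did so for 26.3% of all genes tested. PBS 2-5 held the highest level of its group for 8 of the 10, all but Tgfb2 and Tgfbr1, where it did so for 30.0% of all genes tested. PBS 1-1 was lowest of its group for Tgfb3, Tgfbr2 and the 4 latent binders. PBS 1-1 was the lowest for 35.1% of all genes tested. For Tgfbr1 the order was another, with LLC1 2-2 the lowest of the LLC1 mice. The first number of the label codes, whose meaning the labels do not give, was 2 for LLC1 2-2, PBS 2-1 and PBS 2-5. Among the mice with a 1 (3 LLC1, 2 PBS) the log2 ratio of group means was -0.51 for Tgfb1 and -0.37 for Tgfbr1, and among those with a 2 (1 LLC1, 2 PBS) it was -0.25 and -0.30. For Tgfbr3 these values were 0.23 and -0.05, for Tgfb2 -0.17 and 0.05, and for Ltbp1 -0.07 and 0.07, while the remaining 5 genes kept their sign.

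**Figure D4:**
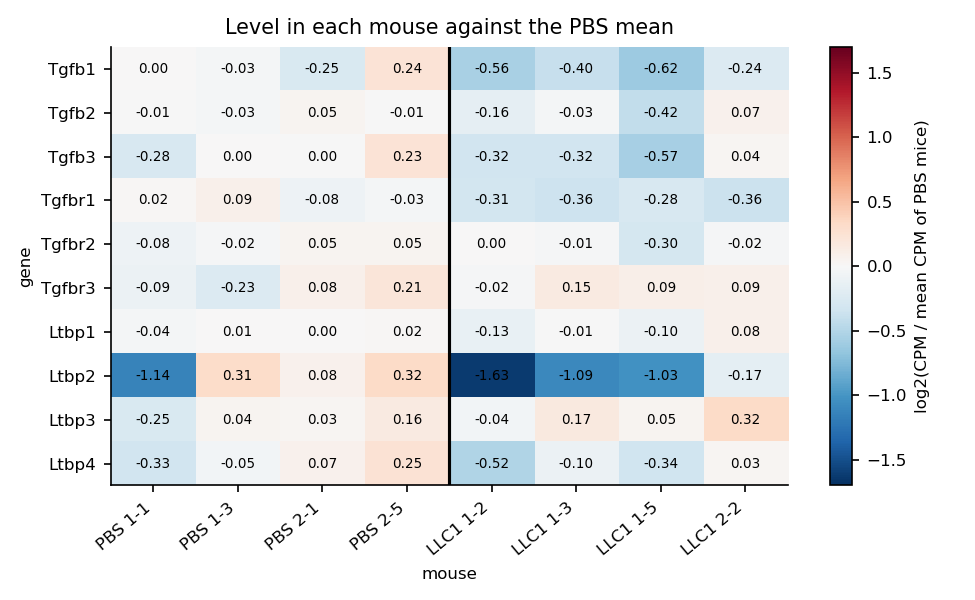
Log2 of each mouse's CPM over the mean CPM of the PBS mice, for the 10 genes (rows) in the 8 mice (columns), blue below and red above that mean. Tgfbr1 is lower in every LLC1 mouse, from -0.28 to -0.36, while Ltbp2 is at -1.14 in PBS 1-1 and at -0.17 in LLC1 2-2.

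Downstream of the receptors, none of the 8 SMAD genes passed the test. The lowest p-values among them belonged to Smad2 (log2 fold change -0.30, FDR = 0.0892) and Smad3 (-0.27, FDR = 0.127), the substrates of TGFBR1, and to Smad1 (-0.27, FDR = 0.125) and Smad5 (-0.16, FDR = 0.134), which relay bone morphogenetic protein signals. Smad5 was the only one whose groups did not overlap, with 54.1 to 57.5 CPM in LLC1 mice and 57.7 to 65.5 CPM in PBS mice. The median log2 fold change of the 8 was -0.15.

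Of 17 tested genes for processing, matrix storage and release of the ligands, 7 were lower and 1 was higher, with a median log2 fold change of -0.32. Fbn1, which encodes the fibrillin of the microfibrils that hold the latent complex, had 70.6, 81.9, 102 and 90.7 CPM in LLC1 1-2, 1-3, 1-5 and 2-2 and 112, 148, 175 and 184 CPM in PBS 1-1, 1-3, 2-1 and 2-5 (log2 fold change -0.84, standard error 0.15, FDR = 0.00686 in edgeR). Every LLC1 mouse was below every PBS mouse. Part of the Fbn1 exon bases (20.1%) overlap Gm9913 on the other strand, which had at most 62 reads. That count does not show how reads in the shared bases were assigned. Itgb6, a subunit of an integrin that releases latent TGF-beta, had 15.7 ± 2.25 CPM in LLC1 and 26.3 ± 5.99 CPM in PBS mice (-0.73, FDR = 0.0127). Mmp2, a gelatinase able to release ligand from the latent complex, had 52.0 ± 5.68 CPM and 79.1 ± 11.0 CPM (-0.61, FDR = 0.00686). Furin, which encodes the protease that cuts the ligand from its propeptide, was the gene that rose, from 91.6, 96.5, 100 and 110 CPM in PBS 1-1, 1-3, 2-1 and 2-5 to 115, 133, 134 and 139 CPM in LLC1 1-2, 1-3, 1-5 and 2-2 (0.39, standard error 0.08, FDR = 0.0120 in edgeR). The groups did not overlap, but the FDR of Furin was 0.0644 with scaling by total counts alone and 0.0518 without PBS 1-3. The others that fell, named after their values were seen, were Thbs1, Plat, Mmp14 and Nrros.

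Of 20 tested co-receptor, inhibitor and adaptor genes, 4 were lower and 0 higher, with a median log2 fold change of -0.07. Bgn, which encodes a matrix proteoglycan that binds TGF-beta, had 194 ± 19.6 CPM in LLC1 and 302 ± 58.1 CPM in PBS mice (-0.64, FDR = 0.0123 in edgeR), and PBS 1-1, at 216 CPM, lay below LLC1 2-2, at 222 CPM. The other 3 were nuclear corepressors of SMAD proteins. Ski, a corepressor on the same list named after its values were seen, did not pass, at -0.05 (FDR = 0.660). Skil had 23.8 ± 1.15 and 32.7 ± 5.66 CPM (-0.45, FDR = 0.0305), Tgif1 2.98 ± 0.385 and 4.87 ± 0.825 CPM (-0.70, FDR = 0.0212), and Tgif2 2.77 ± 0.213 and 3.92 ± 0.285 CPM (-0.49, FDR = 0.0482). Skil is itself induced by TGF-beta. With single mice left out, the calls of Skil, Tgif1 and Tgif2 held in 3, 4 and 1 of 8 fits. Under 9 other ways of processing with all mice, they held in 8, 9 and 3. Tgif2 is also the least certain in its reads, as 5430405H02Rik overlaps 56.7% of its exon bases on the other strand and the transcript of Tgif2-ps2 is 99.6% identical over 711 bases.

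Of 22 tested genes widely used as readouts of TGF-beta, 8 were lower and 0 higher, with a median log2 fold change of -0.57. Postn, a matricellular protein of activated fibroblasts, had 28.8, 19.2, 27.6 and 27.4 CPM in LLC1 1-2, 1-3, 1-5 and 2-2 and 45.9, 79.4, 75.3 and 61.1 CPM in PBS 1-1, 1-3, 2-1 and 2-5 (log2 fold change -1.35, standard error 0.17, FDR = 0.00113 in edgeR). Vcan, a large proteoglycan, had 12.7 ± 2.23 and 26.7 ± 3.45 CPM (-1.07, FDR = 0.00103). Sparc, a collagen-binding matricellular protein, had 294 ± 14.2 and 541 ± 123 CPM (-0.88, FDR = 0.00343), and Col5a1, a fibrillar collagen chain, 67.8 ± 4.39 and 105 ± 14.7 CPM (-0.64, FDR = 0.00317). For these 4 genes every LLC1 mouse was below every PBS mouse, as was so for 8.27% of all genes tested. The calls held in all 8 fits without 1 mouse. The 4 were named for the lowest p of the list in these same mice, which favors both outcomes. The other 4 that fell, named after their values were seen, were Col1a1, Col1a2, Col3a1 and Fn1. Ctgf, also in common use as a TGF-beta readout and named after its values were seen, did not pass, at a log2 fold change of 0.34 (FDR = 0.108).

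**Figure D5:**
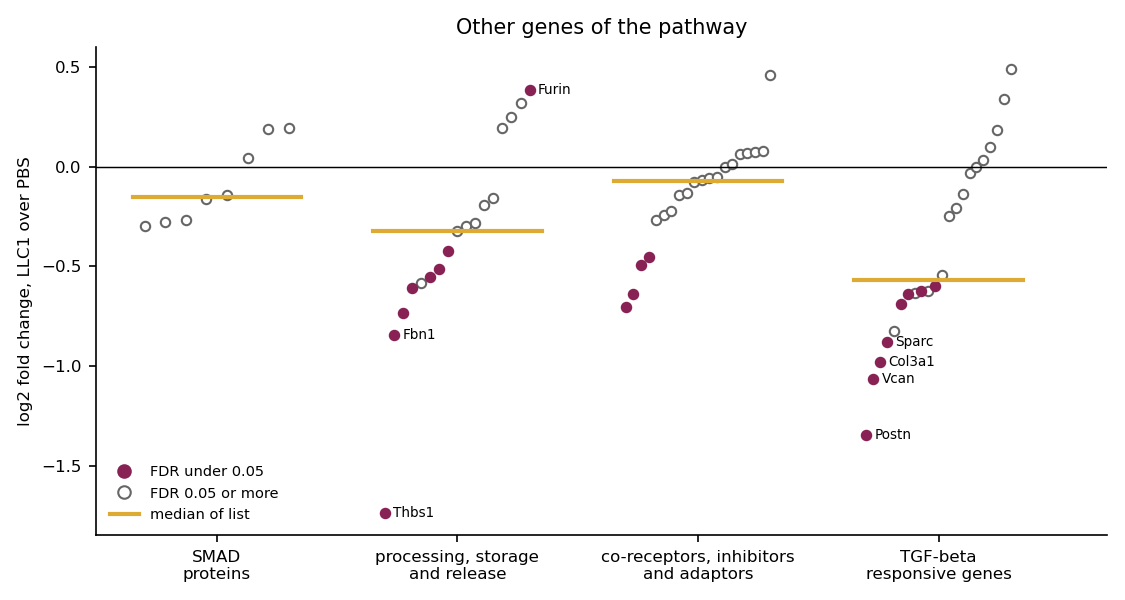
Log2 fold change of LLC1 over PBS (y axis) for the tested genes of 4 pathway lists, filled where the FDR is under 0.05 and open otherwise, with the median of each list in yellow. The SMAD genes hold no filled point, Furin is the only filled point above 0, and Thbs1, at -1.74, is the lowest.

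Over the 4 lists together, each gene counted once, 19 of 67 tested genes were lower and 1 was higher, beside 4.61% lower and 4.12% higher over all genes tested. The lists were chosen with earlier results of these data known, so this count is a description. These 20 calls became 10 without PBS 1-3, 12 without LLC1 1-3 and 13 without LLC1 1-2. Markers of the cells that make and receive TGF-beta moved in part with these genes. Of the 8 fibroblast markers 3 fell (Col1a1, Col1a2 and Lum), 2 of them also in the list of TGF-beta readouts, while the list summed to 2240 to 2620 CPM in LLC1 and 2140 to 2520 CPM in PBS mice. That sum was mostly Gsn, at 1200 to 1750 CPM per mouse, and 6 of the 8 markers had estimates below 0, with a median log2 fold change of -0.21. Of the 7 endothelial markers 2 fell (Kdr and Emcn), with sums of 848 to 950 CPM and 908 to 1200 CPM. Of the 7 macrophage markers in the test 2 fell (Ptprc and Lyz2), with sums of 261 to 326 CPM and 287 to 416 CPM. Of 4 tested platelet markers Pf4 fell, with sums of 11.3 to 17.6 CPM and 17.6 to 19.0 CPM, and Gp9 was under the filter. No mural marker of 6 was called, with sums of 697 to 802 CPM in LLC1 and 804 to 952 CPM in PBS mice. All 4 tested genes of dividing cells fell, from sums of 13.8 to 42.9 CPM to sums of 2.30 to 4.65 CPM. Of 3 tested granulocyte markers 2 rose (S100a8 and S100a9), from sums of 1.24 to 2.83 CPM to sums of 3.12 to 6.06 CPM, with Ly6g and Retnlg under the filter. None of the 5 erythroid markers was called, with sums of 1430 to 5180 CPM in LLC1 and 1560 to 3100 CPM in PBS mice, and all 5 lymphocyte markers were under the filter. Of the 8 heart muscle markers Myh6 rose. The part of these cells in the values of the TGF-beta genes was not tested.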

How the data were processed

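Ventricular RNA of 8 mice (4 LLC1, 4 PBS) was sequenced by the authors as 150-base paired-end reads of TruSeq RNA libraries, a kit that does not mark strand. The values are raw read counts per gene that the authors deposited, without normalization. The submitters' processing notes name mm10, CASAVA, STAR and featureCounts. Versions, annotation and strand setting are not given in the sources used here. The reads given for overlapping genes therefore do not show how reads in shared bases were assigned.

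The 10 genes and the lists were chosen with earlier results of these data known. Genes passing filterByExpr (16111 of 43346) were scaled with TMM factors and compared, unpaired, with edgeR 4.0.16 (glmQLFit, glmQLFTest) in R 4.3.3, at an FDR under 0.05. The standard error is the absolute log2 fold change over the square root of F. Single genes were also compared by an exact 2-sided permutation test of log2 CPM. Named are all 10 genes and the 4 of lowest p in each pathway list, beside others where the text says so. Alternatives were DESeq2 1.42.0, limma-voom (limma 3.58.1), other scalings and filters, robust shrinkage, the label code's first number as a covariate, gene-length offsets, and single mice left out. The fit was tested on simulated counts. Exon overlaps came from GENCODE M21 (8 of the 10 genes at the same position), similar transcripts from BLAST 2.17.0 (at least 97% identity over 150 bases), and promoters from RefSeq GRCm38.p6. The table lists Ccn1 and Ccn2 as Cyr61 and Ctgf, and Adgre1 was not used here. Plg and Cdkn2b were under the filter. Some values are not reported here.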

Additional observations from a re-analysis of the deposited data

Results flagged for a closer look

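The level of 1 mouse stood apart from the other 3 of its group for 3 of the genes named above by Dixon's test of the gap to the nearest mouse over the group's range (95% critical value). Tgfbr2 was at 52.7 CPM in LLC1 1-5 against 64.1 to 65.1 CPM in the other LLC1 mice. Without that mouse the log2 fold change of Tgfbr2 was -0.01. Itgb6 was at 19.0 CPM in LLC1 1-5 against 14.4 to 14.9 CPM, which leaves it below all PBS mice. Postn was at 19.2 CPM in LLC1 1-3 against 27.4 to 28.8 CPM. Chance alone gives about 1 such case in 20 groups, and 52 groups of 4 mice were examined.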

How the results depend on the processing

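Leaving out each mouse in turn gave 542 to 1949 genes with an FDR under 0.05 against 1406 with all mice, 0 to 3 of the 10 genes lower against 2, and 10 to 24 of the pathway genes called against 20. The 10 genes held 0 lower calls without LLC1 1-3 or without PBS 1-3, and 3 (with Ltbp2) without PBS 1-1 or without LLC1 2-2. With all mice, Tgfb1 and Tgfbr1 were called under all 9 alternatives, with FDRs of 0.0131 to 0.0464 and 0.00612 to 0.0391, and 89 of the 90 values of the 10 genes kept their direction and side of the threshold. The exception was Ltbp1, at 0.03 with offsets for gene length. Of the 144 values of the 16 named pathway genes under these alternatives 8 lost the call, 6 of them for Tgif2, and none was reversed. Scaling by total counts alone gave 225 genes higher against 663, so that 22.1% of the calls were in the higher direction against 47.2%. Ltbp2 had the fewest reads of the 10 genes, 24 to 104 per mouse. No paired analysis was possible because the groups share 1 label code, which different mice carry.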

Other observations

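Genes named after the pathway but outside the 10 and the lists, chosen after their values were seen, did not pass the test with all mice. Tgfbr3l, a relative of the betaglycan gene Tgfbr3, had 5.42, 6.91, 5.42 and 7.14 CPM in LLC1 1-2, 1-3, 1-5 and 2-2 and 2.57, 3.79, 3.83 and 5.37 CPM in PBS 1-1, 1-3, 2-1 and 2-5. Every LLC1 mouse was above every PBS mouse, but LLC1 1-2 and 1-5 only just above PBS 2-5, and the log2 fold change of 0.66 missed the threshold (FDR = 0.0555 in edgeR). Tgfbr3l passed under 4 of the 9 alternatives with all mice, the highest FDR among the 9 being 0.118. It passed in 1 of the 8 fits with single mice left out, the highest FDR among the 8 being 0.149. Tgfb1i1, which encodes the focal adhesion protein Hic-5, had a log2 fold change of -0.40 (FDR = 0.0942) and passed in 1 of the 8 fits with single mice left out. Tgfbrap1, a trafficking protein that binds TGF-beta receptors, was at -0.07 (FDR = 0.650).

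Thbs1 encodes thrombospondin-1, an activator of latent TGF-beta, and had the largest estimate of the 4 lists. It had 8.60, 9.68, 10.1 and 12.5 CPM in the LLC1 mice, and in PBS mice it was split, at 47.0 and 56.2 CPM in PBS 1-1 and 1-3 and 16.5 and 18.5 CPM in PBS 2-1 and 2-5. The split follows the first number of the label code. Among the mice with a 1 the log2 ratio of group means was -2.45, and among those with a 2, with 1 LLC1 mouse, it was -0.49. Over all mice the log2 fold change was -1.74 (standard error 0.35, FDR = 0.0127 in edgeR). The call held under 8 of the 9 alternatives with all mice, and the FDR reached 0.0748 under the remaining alternative. It held in all 8 fits with single mice left out, the highest FDR being 0.0454.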
